A study of Mus musculus with 4 samples.

Results

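The nuclear receptors and basic leucine zipper factors through which the circadian clock reaches its output genes were measured in colonic epithelial cells of control and *Bmal1* cKO mice with DSS colitis. The members were a fixed set of 9 genes, found in the table by the symbols *Nr1d1*, *Nr1d2*, *Rora*, *Dbp*, *Tef*, *Hlf*, *Nfil3*, *Bhlhe40* and *Ciart*. Of these, 8 had a row among the 16015 genes listed, and all 8 were among the 13983 genes tested, which are those whose mean normalized count reached 10. *Hlf* had no row, the lowest mean of any listed gene was 3.39, and *Hlf* was not analysed here.

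The control group was 2 *Bmal1* fl/fl mice, labelled WT, and the other group was 2 *Villin-CreERT2; Bmal1* fl/fl mice, in which tamoxifen switches on a Cre recombinase driven by the promoter of the epithelial gene *Villin*. All mice in the study were on a C57BL/6 background, 2 to 4 months old, and kept in 12 h of light and 12 h of dark. Both groups drank 3% dextran sulfate sodium (DSS), which injures the colonic epithelium, during 5 days, followed by 2 days of water, and the cells were collected on day 7. Whether the control mice also received tamoxifen, the sex of these 4 mice and the hour of day at which they were sampled are not given in the sources used here. Each library was bulk RNA-seq of crypts released with EDTA and by scraping, and such a fraction can hold other cells.

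The mammalian clock runs on a loop in which CLOCK and BMAL1 bind E-boxes and switch on genes whose products then shut the pair down. REV-ERBα and REV-ERBβ (encoded by *Nr1d1* and *Nr1d2*) are heme-binding nuclear receptors that repress genes carrying ROR elements, among them *Bmal1* and *Nfil3*, and the ROR receptors activate the same elements. DBP, TEF and HLF, the PAR bZIP factors, activate genes through D-boxes, and NFIL3 (also called E4BP4) represses them through the same sites. BHLHE40 (DEC1) binds E-boxes as a repressor, and CIART (CHRONO) is a repressor of the CLOCK and BMAL1 pair. In the gut, this network is known for timing metabolism, barrier function and immune responses over the day.

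To show the sequence from which these genes are read, promoter windows from 250 bases before to 50 bases after the start site were taken from RefSeq (GRCm38.p6), which held windows for 8 of the 9 members (none for *Bhlhe40*). Both strands were searched for the E-box CACGTG, the related E'-box CACGTT, the ROR elements TAGGTCA and TGGGTCA, the shorter core AGGTCA that TAGGTCA contains, and the D-boxes TTATGTAA and TTACGTAA. Each of the following windows reads 5′ to 3′ on the strand of its gene, and capitals mark a match (AACGTG and TGACCTA are the reverse strand of CACGTT and TAGGTCA). The window of *Ciart* is chr3:95882179-95882478 (minus strand), that of *Tef* chr15:81802423-81802722 (plus strand), that of *Nr1d1* chr11:98775328-98775627 (minus strand), that of *Nfil3* chr13:52980990-52981289 (minus strand) and that of *Dbp* chr7:45704997-45705296 (plus strand). The first 4 are shown for the element they carry, and *Dbp* because its level differed widely between the groups while none of these letters stood in its window.
Ciart: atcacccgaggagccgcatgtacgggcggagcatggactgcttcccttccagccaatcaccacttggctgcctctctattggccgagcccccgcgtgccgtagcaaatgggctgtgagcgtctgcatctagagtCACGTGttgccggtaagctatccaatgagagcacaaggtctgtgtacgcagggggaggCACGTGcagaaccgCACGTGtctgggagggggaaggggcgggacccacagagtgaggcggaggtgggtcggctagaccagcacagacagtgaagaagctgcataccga
Tef: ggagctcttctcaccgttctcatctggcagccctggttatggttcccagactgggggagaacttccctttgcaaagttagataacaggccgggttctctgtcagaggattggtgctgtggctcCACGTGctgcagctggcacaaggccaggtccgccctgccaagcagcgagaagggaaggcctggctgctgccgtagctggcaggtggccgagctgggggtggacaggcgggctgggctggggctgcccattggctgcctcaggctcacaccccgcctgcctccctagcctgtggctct
Nr1d1: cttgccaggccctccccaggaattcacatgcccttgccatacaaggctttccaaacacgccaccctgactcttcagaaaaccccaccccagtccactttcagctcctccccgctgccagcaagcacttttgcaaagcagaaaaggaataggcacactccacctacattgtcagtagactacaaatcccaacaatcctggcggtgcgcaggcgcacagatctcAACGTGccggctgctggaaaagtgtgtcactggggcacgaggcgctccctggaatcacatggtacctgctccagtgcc
Nfil3: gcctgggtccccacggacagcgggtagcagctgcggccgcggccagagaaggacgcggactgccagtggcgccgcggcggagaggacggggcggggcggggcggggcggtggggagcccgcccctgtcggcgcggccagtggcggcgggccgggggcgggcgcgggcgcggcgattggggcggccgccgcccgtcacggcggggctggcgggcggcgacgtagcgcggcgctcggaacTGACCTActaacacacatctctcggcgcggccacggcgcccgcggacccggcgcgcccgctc
Dbp: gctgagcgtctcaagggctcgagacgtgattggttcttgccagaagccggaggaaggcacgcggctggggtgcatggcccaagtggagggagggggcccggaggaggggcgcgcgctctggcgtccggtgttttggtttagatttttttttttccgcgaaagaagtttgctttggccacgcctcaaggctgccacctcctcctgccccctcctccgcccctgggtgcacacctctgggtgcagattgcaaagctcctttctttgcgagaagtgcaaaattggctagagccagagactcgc

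*Ciart* held 3 E-boxes, which began at positions -116, -58 and -44 from the start site. *Tef* held 1 E-box in each of its 2 windows, and 7.15% of the 32851 RefSeq promoter windows held at least 1. *Nr1d1* held 1 E'-box (4.68% of windows), *Nfil3* held 1 TAGGTCA element (2.61% of windows), and *Nr1d2* held 1 AGGTCA core (16.3% of windows). No D-box stood in a member's window, against 0.938% of windows with TTATGTAA and 0.119% with TTACGTAA, and TGGGTCA (3.98% of windows) was not found either. *Rora* and *Hlf* matched none of these motifs. A match in such a window only describes its letters. *Ciart* and *Tef*, with E-boxes here, did not pass the test given below, while *Nr1d1*, with an E'-box, did. Sequence outside these windows was not searched, and a link between a match and a difference between the groups was not tested.

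In the libraries labelled *Bmal1* cKO, 6 of the 8 members tested fell (*Nr1d1*, *Nr1d2*, *Rora*, *Dbp*, *Nfil3* and *Bhlhe40*) and 0 rose, at an adjusted p under 0.05 from limma. Over all genes tested, 27.7% were called lower and 29.0% higher, so that falling was common in these libraries. The median log2 fold change of the 8 members was -1.46, against -0.04 over all genes tested. Between them the members spanned a wide range, from -5.67 for *Nr1d1* to -0.21 for *Tef*. Neither *Bmal1* cKO library reached the lower control library for 7 of the 8, all but *Tef*, and this was so for 41.7% of all genes tested. Leaving out 1 mouse left 4 members called without control mouse 1 or *Bmal1* cKO mouse 2, and 5 without control mouse 2 or *Bmal1* cKO mouse 1. No direction of a called member turned in any of these fits, in which the single mouse left in a group is assumed to vary like the mice of the other group.

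**Figure D1:**
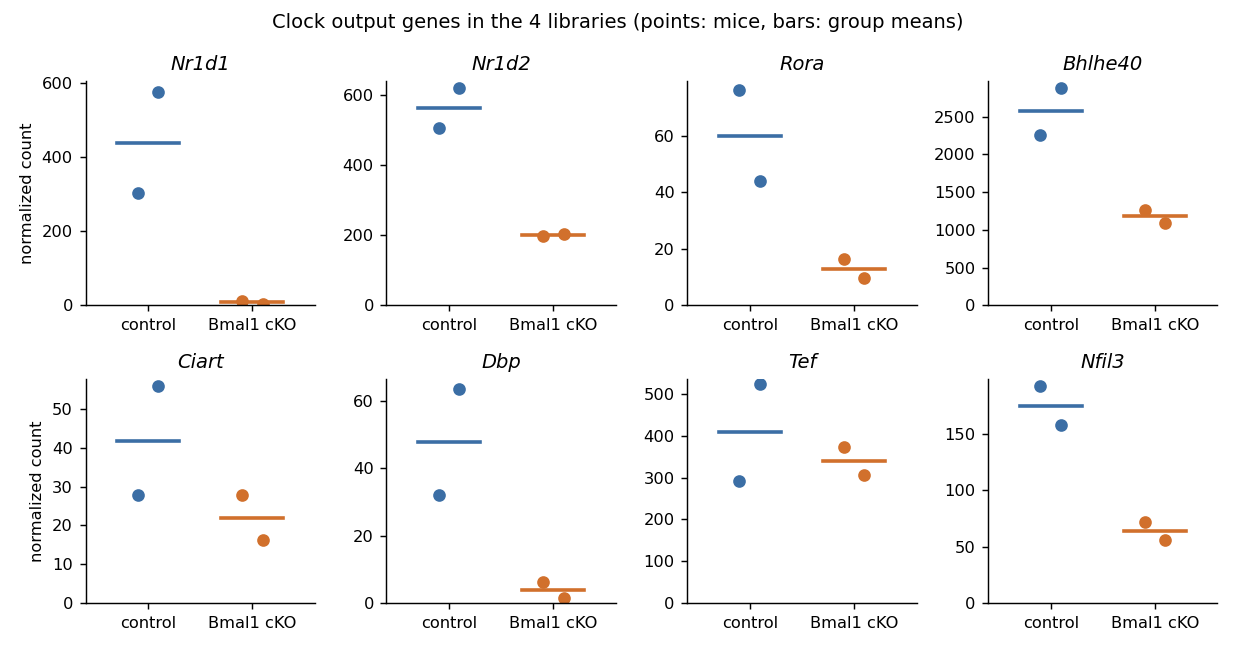
Normalized counts (linear axis from 0, a scale of its own in each panel) of the 8 listed members in the 2 control and 2 *Bmal1* cKO mice, with points for mice and bars for group means. *Nr1d1* and *Dbp* lie close to 0 in both *Bmal1* cKO mice, while the points of *Tef* overlap between the groups.

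Several facts about the libraries touch every value that follows. The targeted gene *Bmal1* (listed as *Arntl*) stood at 358 and 342 normalized counts in control mice, compared with 341 and 289 in *Bmal1* cKO mice, and its log2 fold change was -0.16 (SE 0.14, adjusted p = 0.389, limma). The paper reports loss of BMAL1 protein from the intestinal epithelium of its knockout mice, by immunoblot and immunohistochemistry. A gene count does not show which part of the gene its reads come from. The groups are named here as the libraries are labelled. The libraries held 10312791 to 14156639 reads on listed genes. Markers of cells other than epithelium were lower in the *Bmal1* cKO libraries for 28 of 34 genes tested and higher for 0. Their summed normalized counts were 16002 and 26299 against 4129 and 3863 for 15 leukocyte markers, 13483 and 2278 against 474 and 508 for 7 fibroblast markers, 1571 and 1593 against 17 and 34 for 5 smooth muscle markers, 1459 and 349 against 60 and 80 for 5 endothelial markers, and 42 and 58 against 16 and 16 for the 2 enteric glia markers listed. *Des* was at 0 in *Bmal1* cKO mouse 1 and *Emcn* in both *Bmal1* cKO mice. All 10 epithelial markers were present in every library (summed counts of 177816 and 242191 against 144500 and 162382), of which 4 fell and 2 rose, against 2 lower and 3 higher after the correction for GC content given next. The part of these other cells in the members' values was not tested, and in bulk samples fewer cells of a type and less RNA per cell cannot be told apart. The log2 fold change also followed GC content, with a Spearman's rho of -0.61 across genes (a description, since genes are not independent replicates), so each member is also given after a correction of every library for GC content and length. After it 17.8% of genes were called lower and 18.0% higher, and 5 members were called lower.

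Both REV-ERB genes fell, with log2 fold changes of -5.67 and -1.47. *Nr1d1* (ENSMUSG00000020889, GRCm38 chromosome 11, 98767932 to 98775333, minus strand) stood at 302 and 577 normalized counts in control mice, compared with 12.3 and 4.06 in *Bmal1* cKO mice. These values came from 358, 681, 12 and 3 reads. Both control mice were far above both *Bmal1* cKO mice, and the lower control value was 24.5 times the higher *Bmal1* cKO value. The mean fell from 439.6 ± 194 to 8.199 ± 5.86 (SD, n = 2 in each group), with a log2 fold change of -5.67 (SE 0.58, adjusted p = 0.00112, limma). Summed over each group and divided by the summed size factors of its libraries, the reads (1039 and 15) gave a ratio of control to *Bmal1* cKO of 50.2 (95% interval 30.3 to 89.9). Reads were not counted by molecule, so this interval covers counting error only and not the difference between mice. Among the 13983 genes tested, *Nr1d1* lay at percentile 0.31 from the lowest log2 fold change, and at percentile 0.72 after the GC and length correction. The log2 fold change was -4.81 (SE 0.56, adjusted p = 0.00507, limma) after that correction. As normalized it ran from -4.97 without *Bmal1* cKO mouse 2, the library with 3 reads, to -6.37 without *Bmal1* cKO mouse 1, and it passed the threshold without any one mouse (highest adjusted p = 0.0212, limma).

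*Nr1d2* (ENSMUSG00000021775, chromosome 14, 18204054 to 18239127, minus strand), the paralogue that encodes REV-ERBβ, stood at 507 and 620 normalized counts in control mice, compared with 199 and 204 in *Bmal1* cKO mice. The groups did not overlap, and the *Bmal1* cKO values lay close together. The mean was 563.5 ± 80.0 in control and 201.3 ± 3.95 in *Bmal1* cKO mice (SD, n = 2), a ratio of 2.80 and a log2 fold change of -1.47 (SE 0.15, adjusted p = 0.00112, limma). After the correction it was -2.36 (SE 0.15, adjusted p = 0.00278, limma). The GC content of *Nr1d2* is 41.8%. The genes of its GC class, 1 of 10 classes of like size, had a median log2 fold change of 0.79, and 6.5% of them lay below *Nr1d2*. In contrast, *Nr1d1* (56.8% GC) lay in a class with a median of -0.82, of which 0.7% lay below it.

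Within a library, the level of *Nr1d1* per exon length was 1.05 and 1.64 times that of *Nr1d2* in the control mice. In the *Bmal1* cKO mice, the same ratio was 0.109 and 0.0349. The paralogues thus stood at like levels in control libraries and far apart in *Bmal1* cKO libraries, and the 2 groups of ratios did not overlap. No scaling of a whole library changes such a ratio, but it is not corrected for the GC content of either gene.

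*Rora* (ENSMUSG00000032238, chromosome 9, 68653786 to 69388246, plus strand) encodes RORα, an activator at the elements that the REV-ERBs repress. It stood at 76.0 and 44.0 normalized counts in control mice, compared with 16.5 and 9.46 in *Bmal1* cKO mice, from 90, 52, 16 and 7 reads. Both *Bmal1* cKO values were below both control values. The log2 fold change was -2.12 (SE 0.52, adjusted p = 0.0183, limma), and -3.08 (SE 0.52, adjusted p = 0.0114, limma) after the correction. The call did not hold without some of the mice. The adjusted p (limma) was 0.0869 without control mouse 1 (log2 fold change -1.74), 0.0544 without *Bmal1* cKO mouse 1 (-2.49) and 0.0966 without *Bmal1* cKO mouse 2 (-1.75), and 0.0400 without control mouse 2 (-2.51).

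**Figure D2:**
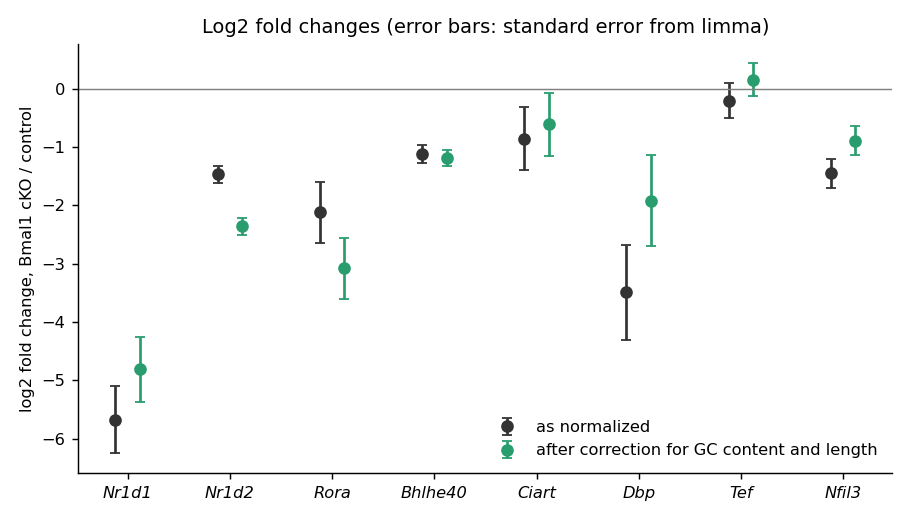
Log2 fold changes (*Bmal1* cKO over control) of the 8 listed members from limma, with bars for 1 standard error, as normalized (dark) and once GC content and length were corrected for (green). *Nr1d1* stays lowest at -5.67 and -4.81, *Nr1d2* and *Rora* move further down, and *Dbp* and *Nfil3* move towards 0.

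Of the PAR bZIP activators listed, *Dbp* passed the test as normalized and *Tef* did not. *Dbp* (ENSMUSG00000059824, chromosome 7, 45705088 to 45710203, plus strand), a classic clock output gene, stood at 32.1 and 63.5 normalized counts in control mice, compared with 6.17 and 1.35 in *Bmal1* cKO mice. These came from 38, 75, 6 and 1 reads, and the groups did not overlap. Its log2 fold change of -3.49 (SE 0.81, adjusted p = 0.0153, limma) was the lowest after that of *Nr1d1*, and the reads of the groups (113 and 7), scaled by the size factors in the same way, gave a ratio of 11.7 (95% interval 5.49 to 29.7). *Dbp* has the highest GC content of the members (61.6%), in a class of genes with a median log2 fold change of -1.35, of which 10% lay below it. After the correction the log2 fold change was -1.92 (SE 0.78, adjusted p = 0.109, limma), which did not pass the threshold. The adjusted p (limma) was 0.0713 without control mouse 2 (log2 fold change -3.01), 0.0667 without *Bmal1* cKO mouse 2 (-2.69), 0.0450 without control mouse 1 (-3.97) and 0.0337 without *Bmal1* cKO mouse 1 (-4.30).

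*Tef* (ENSMUSG00000022389, chromosome 15, 81802421 to 81826863, plus strand) stood at 291 and 525 normalized counts in control mice, compared with 374 and 307 in *Bmal1* cKO mice. Both *Bmal1* cKO values lay between the control values. The log2 fold change was -0.21 (SE 0.30, adjusted p = 0.573, limma), 0.15 (SE 0.28, adjusted p = 0.697, limma) after the correction and 0.22 (adjusted p = 0.436, limma) without control mouse 2, so that no direction is given. Within a library the level of *Dbp* per exon length was 0.290 and 0.318 times that of *Tef* in the control mice and 0.0433 and 0.0116 times in the *Bmal1* cKO mice. This ratio was close between the control mice and lower in both *Bmal1* cKO mice. In normalized counts, control mouse 2 stood at 1.98 times control mouse 1 for *Dbp* and at 1.80 times for *Tef*. The hour of sampling is not given, and its part in these levels was not tested. The ratio is not corrected for the GC content of the genes (61.6% and 53.1%), and the difference between their log2 fold changes was not tested.

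*Nfil3* (ENSMUSG00000056749, chromosome 13, 52967209 to 52981073, minus strand), the repressor at D-boxes and itself a REV-ERB target, reached 192 and 158 normalized counts in control mice. Its values in *Bmal1* cKO mice were 72.0 and 55.4. Every *Bmal1* cKO value was below every control value, and the mean fell from 174.7 ± 24.2 to 63.71 ± 11.7 (SD, n = 2). The log2 fold change was -1.45 (SE 0.25, adjusted p = 0.00604, limma) and -0.89 (SE 0.25, adjusted p = 0.0444, limma) after the correction. The corrected call was lost with the replicate block (-0.89, adjusted p = 0.0521, limma) and with a linear loess in place of the robust one (-0.56, adjusted p = 0.123, limma). Without control mouse 1 it was -1.30 (adjusted p = 0.0621, limma), short of the threshold. *Nfil3* was thus lower in the same libraries in which *Nr1d1* and *Nr1d2*, its repressors, were lower. The level of *Nfil3* per exon length was 8.82 and 3.66 times that of *Dbp* in the control mice and 17.2 and 60.6 times in the *Bmal1* cKO mice, where the last value rests on 1 read of *Dbp*.

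The E-box repressors were *Bhlhe40* and *Ciart*. *Bhlhe40* (ENSMUSG00000030103, chromosome 6, 108660629 to 108666925, plus strand), which is also induced in activated immune cells, was the most abundant member in every library. It stood at 2260 and 2885 normalized counts in control mice, compared with 1267 and 1095 in *Bmal1* cKO mice, and the groups did not overlap. The mean fell from 2572 ± 442 to 1181 ± 122 (SD, n = 2), with a log2 fold change of -1.12 (SE 0.15, adjusted p = 0.00249, limma). The correction left it at -1.19 (SE 0.14, adjusted p = 0.00507, limma), and without any one mouse it stayed between -1.29 and -0.94. Of the genes in its GC class, 14.1% lay below it.

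*Ciart* (ENSMUSG00000038550, chromosome 3, 95878503 to 95882251, minus strand) stood at 27.9 and 55.9 normalized counts in control mice, compared with 27.8 and 16.2 in *Bmal1* cKO mice, from 33, 66, 27 and 12 reads. The lower control value and the higher *Bmal1* cKO value were nearly equal. Its log2 fold change was -0.86 (SE 0.54, adjusted p = 0.217, limma), and -0.61 (SE 0.54, adjusted p = 0.407, limma) after the correction. Neither passed the threshold. The reads of the groups (99 and 39), scaled by the size factors, gave a ratio of 1.84 (95% interval 1.26 to 2.74, counting error only). Control mouse 2 stood at 2.01 times control mouse 1, and the difference between the groups was not separable from such a spread between mice.

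**Figure D3:**
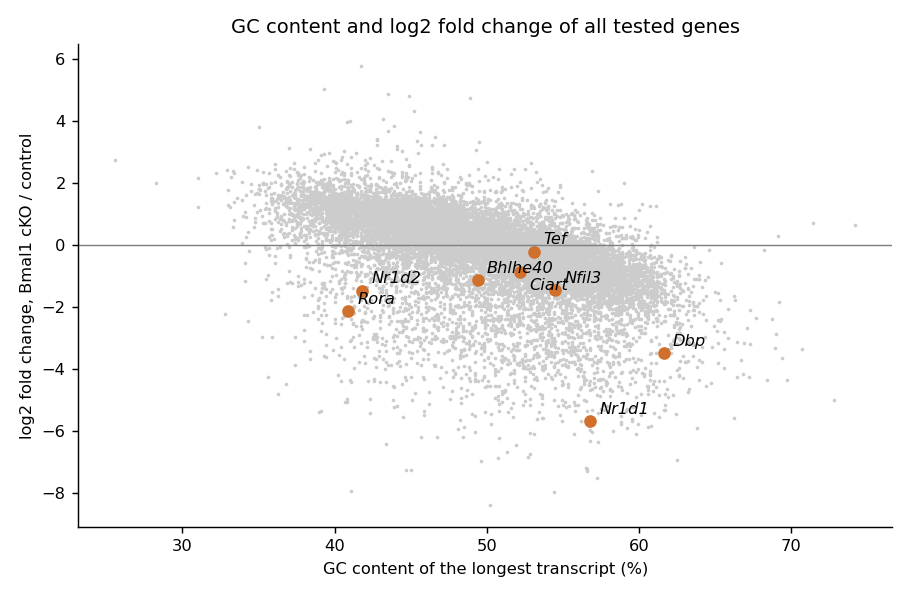
Log2 fold change (*Bmal1* cKO over control) against GC content of the longest transcript (%) for all tested genes with a known GC content (grey) and the 8 listed members (orange). Most genes lie along a falling band, *Nr1d2* and *Rora* lie below the GC-poor part of it at -1.47 and -2.12, and *Tef* lies inside it.

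Levels of different genes were compared per length, as RPKM (reads per kb of exon, scaled to the listed reads of the library). In the control mice, *Bhlhe40* came first (46.2 ± 7.01, SD, n = 2), followed by *Nr1d1* (12 ± 5.09), *Nr1d2* (8.80 ± 1.07), *Nfil3* (7.30 ± 1.16), *Tef* (4.37 ± 1.69), *Ciart* (1.56 ± 0.710), *Dbp* (1.35 ± 0.601) and *Rora* (0.390 ± 0.154). The values of *Nr1d1* and *Nr1d2*, of *Nr1d2* and *Nfil3*, and of *Ciart* and *Dbp* overlapped between mice, so that these neighbours did not differ beyond their spread over mice. Within each control mouse *Nr1d1* stood above *Nr1d2* and *Ciart* above *Dbp*. In the *Bmal1* cKO mice, *Bhlhe40* was again first (18.2 ± 2.08), now followed by *Tef* (3.13 ± 0.476), *Nr1d2* (2.69 ± 0.0215) and *Nfil3* (2.28 ± 0.445). *Ciart* followed at 0.705 ± 0.269, and *Nr1d1* (0.194 ± 0.140), *Dbp* (0.0914 ± 0.0834) and *Rora* (0.0719 ± 0.0282) came last, where the values of *Nr1d1* and *Dbp* and those of *Dbp* and *Rora* overlapped. Thus *Nr1d1* stood above *Tef* in both control mice and below *Tef* in both *Bmal1* cKO mice.

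**Figure D4:**
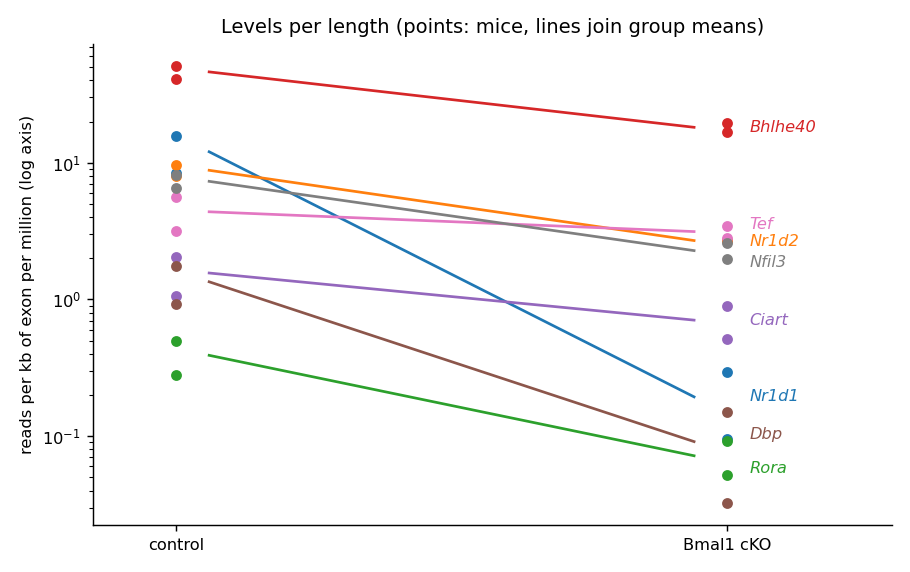
Level of each listed member per exon length (RPKM, log axis) in the control and *Bmal1* cKO mice, with points for mice and lines that join group means. The line of *Nr1d1* drops from 12 to 0.194 and crosses those of *Nr1d2*, *Nfil3*, *Tef* and *Ciart*.

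Some members share exon sequence with a gene on the opposite strand, and whether the counting used strand is not given in the sources used here, so that reads in the shared part cannot be told apart. *Nr1d1* shares 263 bases with *Thra*, 8.55% of its exon length. *Thra*, which encodes a thyroid hormone receptor, stood at 255 and 318 normalized counts in control mice, compared with 166 and 170 in *Bmal1* cKO mice, with a log2 fold change of -0.76 (adjusted p = 0.0158, limma) and 0.53 (adjusted p = 0.0768, limma) after the correction. *Nr1d1* had 1.19 and 1.81 times the reads of *Thra* in the control mice and 0.0745 and 0.0238 times in the *Bmal1* cKO mice. *Dbp* shares 539 bases (18.0% of its exon length) with *Sphk2*, a sphingosine kinase gene, which had 416 and 574 against 274 and 196 normalized counts, a log2 fold change of -1.07 (adjusted p = 0.0132, limma) and 0.02 (adjusted p = 0.958, limma) after the correction. *Dbp* had 0.0772 and 0.111 times the reads of *Sphk2* in the control mice and 0.0226 and 0.0069 times in the *Bmal1* cKO mice. Both members were therefore lower relative to their partners in every *Bmal1* cKO library. *Bhlhe40* shares 118 bases (2.51%) with *0610040F04Rik*, which had 21.1 and 16.9 against 49.4 and 71.6 normalized counts and rose. *Rora* and *Tef* overlap antisense genes that had no row.

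The genes whose pattern over the 4 libraries lay closest to that of a member were found as the smallest root mean square difference of centred log2 values, among 9982 genes whose mean reached 100, for the called members with the lowest and the highest log2 fold change. For *Nr1d1* these were *Slc11a1* (difference 0.38), *Ncf1* (0.42) and *Tyrobp* (0.43), which encode a metal transporter of phagocytes, a subunit of the phagocyte NADPH oxidase and a signalling adaptor of myeloid and natural killer cells. *Ncf1* stood at 170 and 308 normalized counts in control mice, compared with 5.14 and 4.06 in *Bmal1* cKO mice. *Tyrobp* had 329 and 356 against 8.23 and 5.41, and *Slc11a1* had 182 and 565 against 11.3 and 5.41. The leukocyte markers were lower as well, for 12 of 15, with *Csf1r* at 613 and 363 against 42.2 and 54.1 and *Ptprc* at 1259 and 745 against 315 and 414. The part of leukocyte RNA in the level of *Nr1d1* was not tested. For *Bhlhe40* the closest genes were *Pheta1* (difference 0.04, with 212 and 254 against 120 and 103), *Plec* (0.05, with 8474 and 10567 against 4446 and 3797), which encodes the cytoskeletal linker plectin, and *Cdk18* (0.05, with 313 and 390 against 160 and 147).

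Other genes of the clock, with heme synthesis genes and C/EBP factors as related groups, were read from 8 lists with 44 tested genes, of which 10 were lower (22.7%) and 21 higher (47.7%), against 27.7% and 29.0% of all genes tested. After the correction 5 were lower and 16 higher, against 17.8% and 18.0% of all genes. Of the 4 activators, 2 rose and 0 fell. *Clock*, the partner of *Bmal1*, stood at 1974 and 1785 normalized counts in control mice, compared with 4957 and 5877 in *Bmal1* cKO mice (log2 fold change 1.52, adjusted p = 6.37e-04, limma), and a log2 fold change of 0.57 (adjusted p = 0.0165, limma) after the correction. *Npas2*, which can stand in for *Clock*, had a log2 fold change of 0.53 (adjusted p = 0.0110, limma) and 0.80 (adjusted p = 0.00676, limma) after the correction.

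Of the 6 core repressors, 1 fell and 2 rose, against 27.7% and 29.0% of all genes tested. After the correction 1 was lower and 3 higher, against 17.8% and 18.0%. *Per1* had 536 and 579 against 184 and 138 normalized counts (log2 fold change -1.80, adjusted p = 0.00110, limma), and a log2 fold change of -0.55 (adjusted p = 0.0422, limma) after the correction. *Per2* rose by a log2 fold change of 1.44 (adjusted p = 0.00177, limma) and 1.94 (adjusted p = 0.00327, limma) after the correction. *Cry1*, which carries ROR elements and is a known REV-ERB target, had 297 and 335 against 1501 and 1623 normalized counts (log2 fold change 2.30, adjusted p = 5.33e-04, limma), and 2.49 after the correction (adjusted p = 0.00255, limma). *Cry2*, *Per3* and *Bhlhe41*, the paralogue of *Bhlhe40*, did not pass the threshold, with log2 fold changes of 0.54, -0.64 and -2.39, and of these *Cry2* passed it after the correction (1.21, adjusted p = 0.0143, limma). Of 5 output genes that the clock is known to drive beside the members, 1 fell and 3 rose, against 0 lower and 2 higher after the correction. The deubiquitinase gene *Usp2* had 50.7 and 70.3 against 248 and 284 normalized counts (log2 fold change 2.13, adjusted p = 0.00155, limma), and a log2 fold change of 2.56 (adjusted p = 0.00360, limma) after the correction. *Wee1*, a mitotic kinase, had a log2 fold change of 0.67 (adjusted p = 0.00643, limma) and 0.63 (adjusted p = 0.0153, limma) after the correction. *Nampt*, the rate-limiting enzyme of NAD salvage, had 1.25 (adjusted p = 0.00297, limma), but 0.24 (adjusted p = 0.352, limma) after the correction. *Tspan4* fell, with a log2 fold change of -1.74 (adjusted p = 0.0448, limma) and -0.70 (adjusted p = 0.363, limma) after the correction.

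Genes of the corepressor complex through which REV-ERBs act moved in both directions. *Gps2* had log2 fold changes of -1.46 (adjusted p = 0.00181, limma) and, after the correction, -0.62 (adjusted p = 0.0435, limma). *Tbl1xr1* and *Tbl1x* rose (1.44 and 0.91, and 0.52 and 0.40 after the correction, with adjusted p = 0.00963 and 0.0228, limma), and *Ncor1* and *Hdac3* did not pass the threshold (0.28 and 0.19). Among 10 clock kinases and ubiquitin ligases tested, 1 fell and 6 rose, against 27.7% and 29.0% of all genes tested. After the correction 1 was lower and 2 higher, against 17.8% and 18.0%. The gene that was lower was *Csnk1e* as normalized (-1.31, and -0.52 with adjusted p = 0.0720 from limma after the correction) and *Btrc* after the correction (-0.01 before it and -0.99 after it, adjusted p = 0.0109, limma). *Csnk2a1*, *Gsk3b*, *Fbxw11* and *Huwe1* rose as normalized (0.81, 0.79, 0.51 and 0.34) and did not pass after the correction (0.09, 0.30, 0.27 and 0.12). *Csnk1d*, a kinase of PER proteins, rose by a log2 fold change of 0.56 (adjusted p = 0.00352, limma) and 1.06 (adjusted p = 0.00299, limma) after the correction. Among 8 genes of heme synthesis, whose product is the REV-ERB ligand, 2 fell and 4 rose, against 0 lower and 3 higher after the correction. *Alas1*, the first enzyme of that pathway, had 1738 and 1861 against 2913 and 2499 normalized counts (log2 fold change 0.59, adjusted p = 0.00786, limma), and a log2 fold change of 0.97 (adjusted p = 0.00391, limma) after the correction.

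The C/EBP factors, bZIP relatives of the PAR family, fell for 3 of 4, against 27.7% of all genes tested. After the correction 2 were lower and 1 higher, against 17.8% and 18.0%. *Cebpb* stood at 819 and 772 normalized counts in control mice, compared with 31.9 and 52.7 in *Bmal1* cKO mice (log2 fold change -4.24, adjusted p = 5.33e-04, limma), and a log2 fold change of -1.47 (adjusted p = 0.0206, limma) after the correction. *Cebpd* had 1696 and 349 against 81.3 and 128 (log2 fold change -2.90, adjusted p = 0.0204, limma), and a log2 fold change of -2.71 (adjusted p = 0.0413, limma) after the correction. *Cebpa* had a log2 fold change of -0.83 (adjusted p = 0.00402, limma) that turned to 0.93 (adjusted p = 0.00526, limma) after the correction, so its direction depends on it. *Cebpg* rose, with a log2 fold change of 1.08 (adjusted p = 0.00202, limma) and 0.34 (adjusted p = 0.0891, limma) after the correction.

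**Figure D5:**
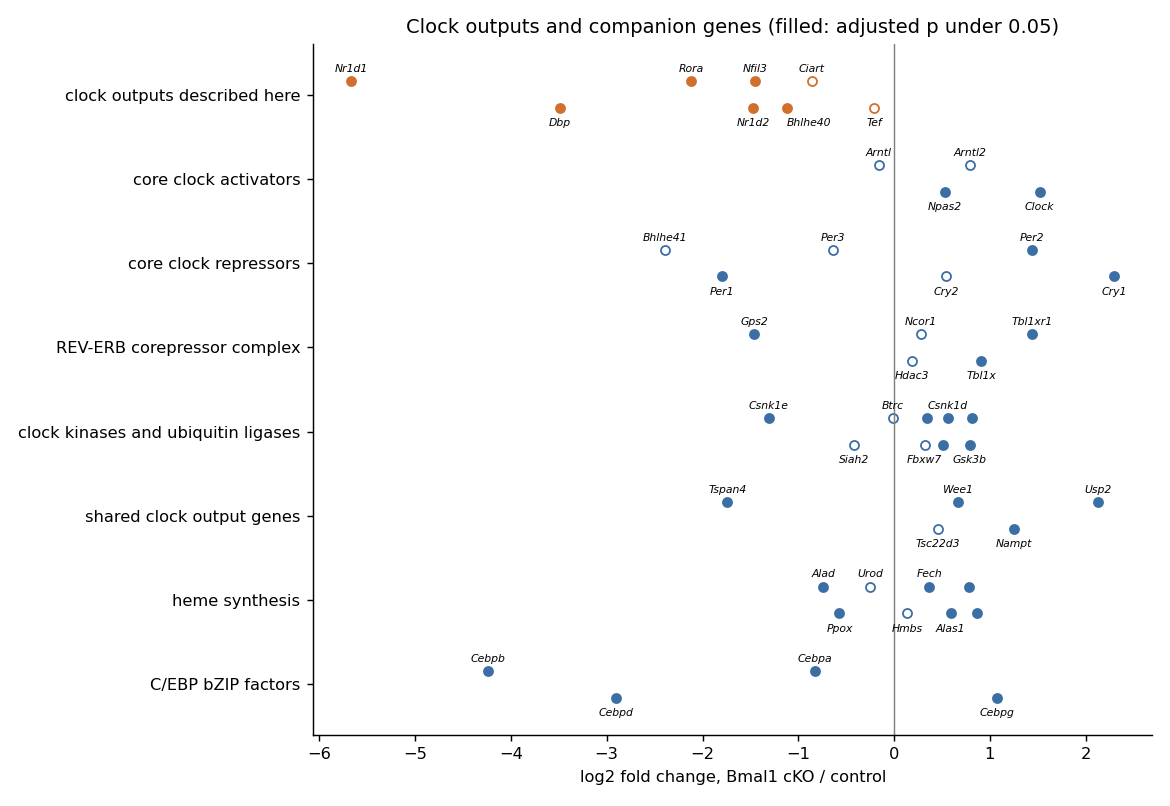
Log2 fold changes (*Bmal1* cKO over control, as normalized) of the 8 listed members (orange) and of genes from 7 lists of other clock and related genes (blue), filled where the adjusted p from limma was under 0.05, with some crowded points left without a name. No member lies to the right of 0, while *Clock*, *Cry1*, *Per2* and *Usp2* lie between 1.44 and 2.30.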

How the data were processed

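Bulk RNA-seq libraries of 2 control and 2 *Bmal1* cKO mice were compared. Per the labels and methods, the authors aligned reads to GRCm38 with STAR and normalized with DESeq2, and the counter, annotation and strand setting are not given in the sources used here. The library kit is named differently in the labels and in the methods. The deposited signal is gene counts divided by a size factor, and 100% of values were whole multiples of 1 read (tolerance 0.1 read). The reads on listed genes, 10312791 to 14156639 per library, limit the precision of genes with few reads. The authors' fold changes, statistics and p-values were also deposited and were not used.

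Values were analysed as log2(normalized count + 1), a scale that understates the change of low genes, and the 13983 genes whose mean reached 10 were compared by limma-trend (version 3.58.1). Tests were two-sided, p-values were adjusted after Benjamini and Hochberg over all of these genes, and the threshold was 0.05. With 2 mice a group, p-values rest on a spread shared across genes. Only the limma step was run on simulated counts, which had the same dispersion for every gene and no GC trend. The GC and length correction was not tried on such counts.

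GC content and length were corrected in each library by a robust loess (span 0.3, degree 2), whose form was chosen after the data were examined, on 13975 genes with both known. Alternatives were pseudocounts of 0.5 and 5, a minimum mean of 50 or none, library totals, TMM, edgeR 4.0.16 and DESeq2 1.42.0 on recovered reads, a replicate block, and leaving out each mouse. Genes were matched to GENCODE by symbol, and 16003 of 16015 had a GC content. The genes named were all members, genes of the companion and marker lists, genes that overlap a member, and the 3 closest patterns to 2 members. Members and lists were chosen with earlier results of these data known, and some genes of the lists are counted but not reported here.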

Additional observations from a re-analysis of the deposited data

How the results depend on the processing

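*Nr1d1*, *Nr1d2* and *Bhlhe40* kept their direction and their side of the threshold under every alternative run, with log2 fold changes between -6.37 and -4.52, between -2.36 and -1.33, and between -1.34 and -0.94. *Ciart* was lower but not past the threshold in each (-1.35 to -0.27). Members called lower numbered 4 to 6 throughout, and 0 were called higher. A minimum mean of 50 left out *Rora*, *Dbp* and *Ciart*. After the GC and length correction, 2492 genes were lower and 2522 higher, 5 companion genes were lower, *Dbp* was at -1.92 and no longer passed, and *Tef* turned to 0.15. With the replicate block and that correction together, these were 2052, 2093, 3, -1.92 (adjusted p = 0.168, limma) and 0.15, and *Nfil3* was at -0.89 (adjusted p = 0.0521, limma). A linear least-squares loess, added after seeing the data, moved the median of all genes to 0.27 and gave 1635 genes lower and 4211 higher, 3 companion genes lower, *Dbp* at -1.68, *Nfil3* at -0.56 (adjusted p = 0.123, limma) and *Tef* at 0.47. The cause was not tested. Without 1 mouse, 2205 to 2852 genes were lower and 2654 to 3154 higher, fewer samples being tested. The log2 fold change then ran from -4.30 to -2.69 for *Dbp*, -1.63 to -1.26 for *Nfil3*, -2.51 to -1.74 for *Rora* and -0.63 to 0.22 for *Tef* (0.22 without control mouse 2). Scaling by library totals moved the median of all genes to -0.26, with 4885 lower and 3091 higher in place of 3871 and 4059, and 12 companion genes lower and 16 higher in place of 10 and 21. Relative to that shift no member changed its call. The replicate block alone gave 3789 lower and 3899 higher and the same 6 members. Across genes, the difference between the control mice and that between the *Bmal1* cKO mice had a correlation of -0.09. This value cannot show whether mice with one number were handled together, which is not given. *Dbp*, *Rora* and *Ciart* rest on few reads, which limits their precision.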
